A study of Arabidopsis thaliana with 6 samples.

Results

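The transcriptomes of hda19 and hdip1/2/3 were compared directly, with the mutants set against each other and the wild type kept out of the contrast. HDA19 is a histone deacetylase, and HDIP1, HDIP2 and HDIP3 are homologous proteins that the study isolated as HDA19 partners. The comparison asks which gene functions separate the loss of the enzyme from the loss of its partners. Members were all genes with a mean adjusted read count of at least 10 in either mutant, which held for 19815 of the 32548 genes in the table. Of these, 364 passed through hda19 alone and 247 through hdip1/2/3 alone.

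Seedlings of the Col-0 ecotype of Arabidopsis thaliana were harvested at 20 days, after growth on MS medium and soil in long days, with 2 libraries for each of the 3 genotypes. The hda19 line carries a T-DNA insertion (SALK_139445) and is labelled homozygous. The hdip1/2/3 line is a CRISPR-Cas9 triple mutant obtained by bringing an hdip2 mutation into an hdip1/3 double mutant, so each mutant is represented by a single allele combination. Whole seedlings were sampled, and fewer cells of a type cannot be told apart from less RNA per cell. The study describes the libraries of a genotype as independent biological replicates, while the labels do not say whether they came from separately grown plants.

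RPD3-type histone deacetylases such as HDA19 remove acetyl groups from histone tails and are recruited to promoters in SIN3-type complexes, in which SIN3-LIKE (SNL) proteins form the scaffold and HDC1 and MSI1 are further subunits. Histone acetylation accompanies active transcription, and HDA19 is known in Arabidopsis for holding down seed, defence and hormone-response genes. Jasmonate is the hormone of wounding and of attack by chewing insects. Abscisic acid (ABA) is the hormone of drought, and cytokinin and auxin direct growth.

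Sequencing was deep and even. The deposited adjusted counts could be traced back to 43906641 to 48407739 reads per library, and the 10 most abundant genes took 7.05% to 9.80% of the reads of a library. For testing, limma-trend was run on the log2 of the adjusted count plus 1, all 6 libraries entering the same model. Differences are given as hda19 minus hdip1/2/3 on that scale, where the added 1 makes differences of weakly expressed genes too small. A gene is said to be called when its difference exceeded 1 in either direction with an unadjusted P value below 0.05, the limits that the study used. All P values are two-sided.

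By these limits, 434 genes were called higher in hda19 than in hdip1/2/3, or 2.19% of members, and 160 genes were called lower, or 0.807%. The median difference over all members was 0.01. After Benjamini-Hochberg adjustment in limma, no gene passed 0.05 (0 of 19815, or 0% of members), and the smallest adjusted P value was 0.134. At an unadjusted P value below 0.05 alone there were 5205 genes, with 14.1% of members higher and 12.1% lower, and limma-voom on the recovered reads likewise left 0 genes after adjustment. Both hda19 libraries lay above both hdip1/2/3 libraries for 32.4% of members and below them for 31.7%, so a lack of overlap was common among the members. The count of genes called higher depended on single libraries. It was 225 without hda19 replicate 2 and 152 without hdip1/2/3 replicate 2, but 1220 without hdip1/2/3 replicate 1, where 992 genes also passed the adjusted threshold. Genes called lower numbered 275 without hda19 replicate 1 and 247 without hdip1/2/3 replicate 1.

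The difference between the mutants moved with transcript length. Among the shortest tercile of members (up to 1399 nt) the median difference was -0.29, among the middle tercile it was -0.01, and among the longest tercile (2078 nt and above) it was 0.32. Long transcripts made up most of the calls in 1 direction, since 298 of the 434 genes called higher belonged to the longest tercile and 133 of the 160 genes called lower to the shortest tercile. All 4 pairings of an hda19 library with an hdip1/2/3 library showed the same direction, with medians of 0.15 to 0.48 for the longest tercile. Relative to the mean of the 6 libraries, the longest tercile deviated by -0.31 in hdip1/2/3 replicate 2 and by -0.10 in hdip1/2/3 replicate 1, against 0.05 and 0.17 in the hda19 libraries. The wild-type libraries themselves differed, at 0.23 and 0.01. The cause of the trend was not tested. When smooth trends on length and GC content were removed from each library, 254 genes were called higher (1.28% of members) and 64 lower (0.323%), and at an unadjusted P value below 0.05 alone there were 8.53% higher and 10.1% lower. Of the original calls, 173 of those higher and 51 of those lower remained. Values after this removal are given below beside the original ones as trend-corrected differences.

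**Figure D1:**
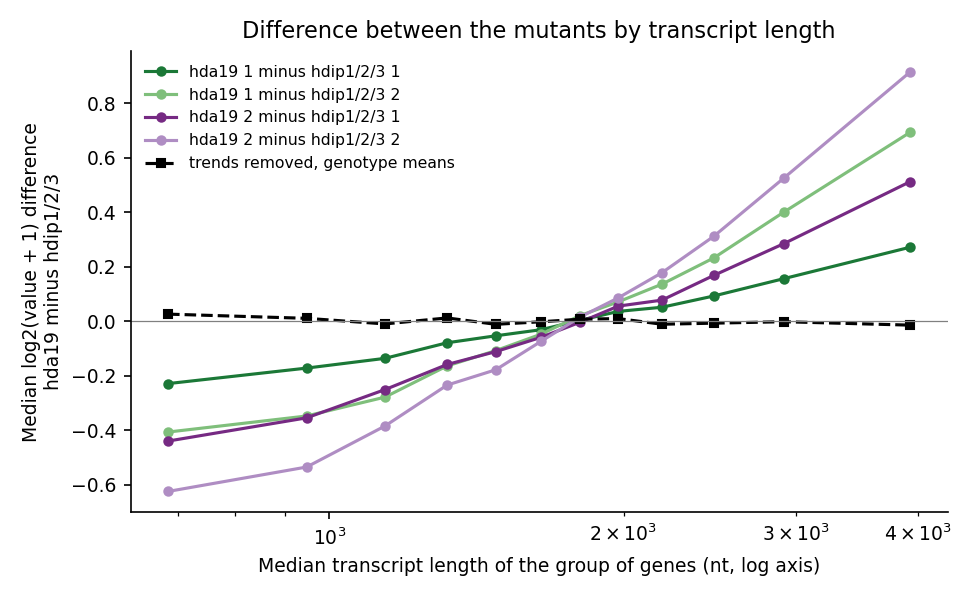
Median log2(value + 1) difference between the mutants (y axis) in 12 equal groups of members ordered by transcript length (x axis, nt, log scale), for each of the 4 pairings of an hda19 with an hdip1/2/3 library and, as a dashed line, for the genotype means after removal of length and GC trends. The shortest group has medians of -0.62 to -0.23 and the longest group medians of 0.27 to 0.92, whereas the corrected line stays near 0.

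Of the listed jasmonate genes, the storage protein genes VSP1 and VSP2 were called higher in hda19. VSP1 (AT5G24780), a vegetative storage protein acid phosphatase and classical jasmonate marker, had adjusted counts of 662 and 160 in hda19 and of 68.4 and 62.2 in hdip1/2/3, against 285 and 512 in the wild type. Its difference was 2.3 (standard error 0.56), or 2.45 after trend correction, and it was 1.28 without hda19 replicate 1 and 3.3 without hda19 replicate 2. The hda19 libraries were thus far apart from each other, yet both exceeded both hdip1/2/3 libraries. VSP2 (AT5G24770), its close neighbour on chromosome 5, had 1333 and 773 in hda19 and 430 and 491 in hdip1/2/3, against 706 and 772 in the wild type. The difference of VSP2 was 1.14 (standard error 0.24), and it fell to 0.75 without hda19 replicate 1, which ended the call. These 2 genes are similar in sequence, and the study counted only reads with a unique position. Reads matching both may thus be missing, and their separate values are uncertain.

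The rest of the jasmonate list gave no call. Of 22 listed genes of jasmonate synthesis and response, 21 were members, 2 were called higher (VSP1 and VSP2) and 0 lower, beside 2.19% and 0.807% of all members, and the median was 0.18 against 0.01 for all members. JAZ1, a repressor of jasmonate signalling that jasmonate itself induces, had a difference of 0.81 (416 and 537 against 282 and 257) and JAZ5 one of 0.57, both with an unadjusted limma P value below 0.05. Synthesis enzymes lay on both sides of 0. AOS, which makes the first committed intermediate, had 6876 and 6063 in hda19 and 7056 and 11036 in hdip1/2/3, and LOX2, the plastid lipoxygenase, had a difference of 0.49 that became 0.09 after trend correction.

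The plant defensins of the PDF1.2 group, small antifungal proteins induced jointly by jasmonate and ethylene, were higher in hda19. PDF1.2a (AT5G44420) had 225 and 259 in hda19 and 114 and 56.0 in hdip1/2/3, a difference of 1.59 (standard error 0.40), with the wild type at 210 and 105. PDF1.2c (AT5G44430) had 39.2 and 64.4 against 6.44 and 2.37, and PDF1.2b (AT2G26020) had 24 and 15.9 against 0.06 and 6.58. Their differences were 3.35 and 2.84, and all 3 became larger after trend correction (2.15, 3.93 and 3.46 for PDF1.2a, PDF1.2c and PDF1.2b). PDF1.2a and PDF1.2c remained called without any single mutant library, whereas PDF1.2b was lost without either hda19 library (2.57 and 3.12) and without hdip1/2/3 replicate 1 (1.43). The 3 genes are near-identical copies, so their separate values are uncertain.

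Of the 9 genes listed for this ethylene and jasmonate branch 8 were members, and these PDF1.2 genes were the only calls, with 2 of them members through hda19 alone. The list median was 0.68. In the wider group of genes with defensin in the product name, 11 were members, with 5 differences positive and 6 negative. The 3 PDF1.2 genes were its only calls, and its median was -0.26, or 0.32 after trend correction. PR3, a basic chitinase, had 366 and 274 against 199 and 195, a difference of 0.68. The transcription factors above the defensins were not called. ORA59, an AP2/ERF activator of PDF1.2, had 74.1 and 87.3 in hda19 and 103 and 154 in hdip1/2/3, a difference of -0.65 (standard error 0.32), and ERF1 had 45.2 and 23.7 against 31.4 and 21.7.

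The promoters of the 3 PDF1.2 genes are shown because members of the group moved together. Each is the 250 bases before the annotated start in TAIR10.1, read 5′ to 3′ on the strand of the gene, with capitals for a GCC-box (GCCGCC, the site bound by ERF factors), an evening element (AATATCT, known from clock-controlled genes) or a G-box (CACGTG, bound by bHLH and bZIP factors) on either strand.
PDF1.2a (chr5:17907639-17907888, minus strand): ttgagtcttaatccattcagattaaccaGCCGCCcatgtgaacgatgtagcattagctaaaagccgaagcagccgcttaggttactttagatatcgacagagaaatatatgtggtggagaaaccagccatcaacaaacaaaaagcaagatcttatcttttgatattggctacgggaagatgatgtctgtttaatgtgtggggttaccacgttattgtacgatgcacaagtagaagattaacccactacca
PDF1.2b (chr2:11088873-11089122, plus strand): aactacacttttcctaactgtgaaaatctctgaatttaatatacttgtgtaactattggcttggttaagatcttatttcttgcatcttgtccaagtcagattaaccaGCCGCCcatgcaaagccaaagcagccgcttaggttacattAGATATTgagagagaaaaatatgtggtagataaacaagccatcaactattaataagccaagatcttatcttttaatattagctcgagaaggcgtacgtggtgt
PDF1.2c (chr5:17909508-17909757, minus strand): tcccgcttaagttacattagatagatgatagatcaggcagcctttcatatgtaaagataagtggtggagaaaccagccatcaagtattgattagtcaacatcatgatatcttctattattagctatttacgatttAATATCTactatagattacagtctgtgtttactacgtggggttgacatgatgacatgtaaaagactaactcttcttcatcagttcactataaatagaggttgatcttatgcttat
The GCC-box starts 222 bases before the PDF1.2a start and 143 bases before the PDF1.2b start, within the same surrounding letters, and these letters are not in the PDF1.2c window. PDF1.2b and PDF1.2c each hold an evening element, 103 and 115 bases before their starts. A match is a description of letters and not evidence of binding.

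Further defence genes came from a rule added after the values had been seen, which took genes called both with and without trend correction, with no overlap between the mutants and a mean of at least 300 in either. It gave 13 genes higher in hda19 and 3 lower. DOX1 (AT3G01420), an alpha-dioxygenase that oxidizes fatty acids during defence, had 185 and 712 in hda19 and 91.6 and 23.4 in hdip1/2/3, with a difference of 2.94 (standard error 0.71), against 18.1 and 17.2 in the wild type. KTI1 (AT1G73260), a Kunitz-type protease inhibitor, had 780 and 1769 against 665 and 243, and its call was lost without hda19 replicate 2 (0.95) or hdip1/2/3 replicate 2 (0.82). JRG21 (AT3G55970), a 2-oxoglutarate-dependent oxygenase known as jasmonate-regulated, had 280 and 377 against 126 and 156, a difference of 1.21 that was 0.99 without hda19 replicate 2.

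The same rule gave MBP1, MBP2 and JAL23, and no list of related genes was examined. MBP2 (AT1G52030), a protein that binds myrosinase, the enzyme releasing toxic products from glucosinolates, had 636 and 457 in hda19 and 152 and 176 in hdip1/2/3, a difference of 1.71 (standard error 0.23), with 324 and 424 in the wild type. MBP1 (AT1G52040), beside it on chromosome 1, had 1692 and 1199 against 539 and 644, a difference of 1.27 (standard error 0.20), with 532 and 641 in the wild type. Both remained called without any single mutant library. JAL23 (AT2G39330), a jacalin-related lectin, had 771 and 1088 against 353 and 462, and its difference of 1.18 came just below 1 without hda19 replicate 2 (0.93) or hdip1/2/3 replicate 1 (0.99). NIT2 (AT3G44300), a nitrilase, had 3070 and 3723 against 1942 and 1311, a difference of 1.08, while the wild type had 112 and 140. NIT2 was lost without hda19 replicate 2 (0.94) or hdip1/2/3 replicate 2 (0.80). The non-coding RNA gene AT1G67105 had 4093 and 1509 against 1130 and 1073, with 54.3 and 31.4 in the wild type, and its difference of 1.17 fell to 0.45 without hda19 replicate 1. The other genes that this rule found higher were VSP1, VSP2, TRM13, NET4B and HMT3, of which TRM13 (0.90), NET4B (0.89) and HMT3 (0.84) were lost without hdip1/2/3 replicate 2, and HMT3 also without hda19 replicate 1 (0.59).

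**Figure D2:**
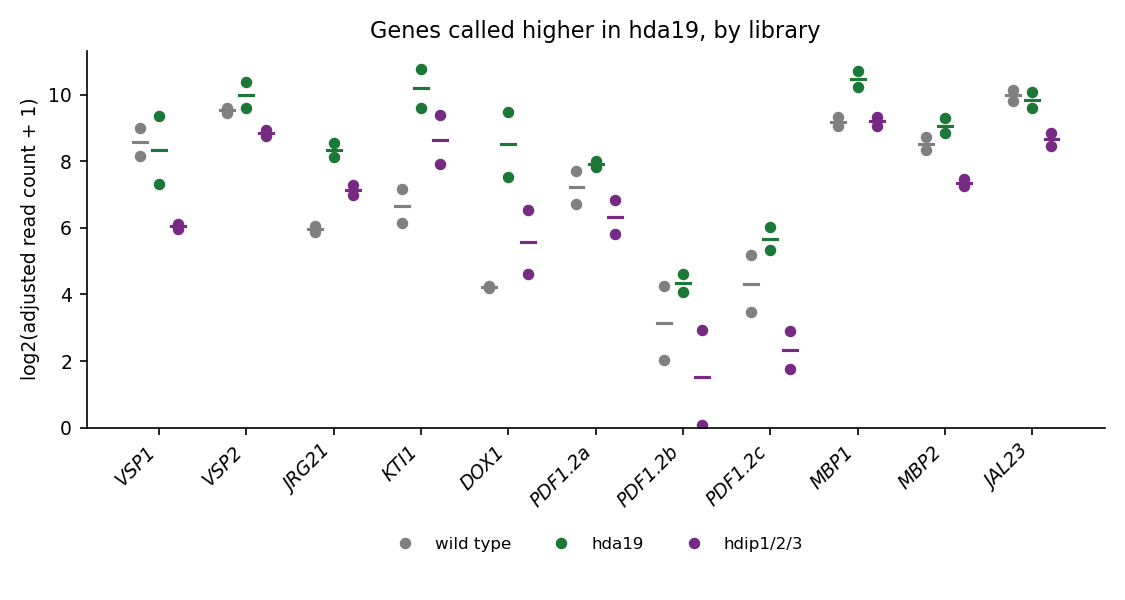
Adjusted read counts on the log2(value + 1) scale (y axis) of 11 genes described above (x axis) in each library, with points for the 2 libraries of a genotype and a dash at their mean. The genes were chosen because they were called higher in hda19, so the order of the mutants is given by the choice, and the plot shows the spread between libraries and the wild-type levels.

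Genes of glucosinolate synthesis themselves gave no call. None of the 18 members among 19 listed aliphatic genes was called. MAM3, a chain-elongation enzyme, had the largest value (609 and 476 against 315 and 281, a difference of 0.85), followed by CYP79F2, which starts the core pathway (1095 and 1224 against 753 and 737, a difference of 0.64). The regulators MYB28 and MYB29 had differences of -0.02 and -0.26. Of 10 indole glucosinolate genes 9 were members and none was called. MYB34, their regulator, had a difference of -0.70, and the transporter PEN3 had one of 0.61 that turned to -0.10 after trend correction.

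Salicylic acid defence gave a single call. All 19 listed genes were members, 0 were called higher and 1 lower, and the median difference was 0.13. PR1, the marker antimicrobial protein of this pathway, had 9930 and 11541 in hda19 and 14470 and 11033 in hdip1/2/3, a difference of -0.24 (standard error 0.16), and PR2, a glucanase, had one of 0.34 (standard error 0.23). The call was NIMIN1, a small protein that binds the coactivator NPR1, with 109 and 129 against 278 and 225 and a difference of -1.07, which was -0.54 and no longer called after trend correction. It was also lost without hda19 replicate 1 (-0.95) or hdip1/2/3 replicate 1 (-0.92). Camalexin synthesis had 7 of 7 members and no call. CYP79B2, which feeds this pathway from tryptophan, had a difference of 0.45, and CYP71A12 had one of 0.30 with overlapping libraries.

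Genes lower in hda19 included 3 factors of the AP2/ERF family. CBF2 (AT4G25470), a cold-response activator, had 1.08 and 10.9 in hda19 and 61.7 and 38.8 in hdip1/2/3, against 20.1 and 14.2 in the wild type. Its difference was -3.33 (standard error 0.81), or -3.02 after trend correction, and it was -2.07 without hda19 replicate 1 and -4.59 without hda19 replicate 2. CBF2 was a member through hdip1/2/3 alone, so a difference in this direction was favoured by the filter. ERF5 and ERF6, ethylene-response factors of the same family, had 66.9 and 96.3 against 157 and 234, and 55.6 and 77.6 against 175 and 146. Their differences were -1.24 and -1.27, with ERF5 lost without hda19 replicate 1 (-0.99) or hdip1/2/3 replicate 2 (-0.96). Of 25 members among the 34 genes of the family defined by gene name or product, 0 were called higher and these 3 lower. Of all members, 2.19% were called higher and 0.807% lower. The family median was -0.57, or -0.27 after trend correction, against 0.01 for all members before correction. CAF1a (AT3G44260), a deadenylase that shortens poly(A) tails and is rapidly induced by wounding, had 468 and 665 against 2126 and 1117, a difference of -1.46 (standard error 0.29). MYB77 (AT3G50060), which acts in auxin responses of roots, had 993 and 1057 against 2501 and 1780, and its difference of -1.04 was -0.80 without hdip1/2/3 replicate 1 and -1.0 without hda19 replicate 1.

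The promoter of CBF2 is shown with the same marks (chr4:13016236-13016485, minus strand).
CBF2: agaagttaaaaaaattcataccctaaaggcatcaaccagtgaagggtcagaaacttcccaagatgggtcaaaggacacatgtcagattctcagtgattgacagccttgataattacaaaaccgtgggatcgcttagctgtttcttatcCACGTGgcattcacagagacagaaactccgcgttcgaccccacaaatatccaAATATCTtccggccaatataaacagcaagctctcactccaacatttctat
It holds a G-box 102 bases and an evening element 50 bases before the start. The evening element was found in 31 of the 160 promoters of genes called lower (19.4%, Wilson 95% interval 14% to 26.2%), in 39 of 434 promoters of genes called higher (8.99%, 6.64% to 12%) and in 10% of the 19814 member promoters read. After trend correction the shares were 16 of 64 for genes called lower (25%, 16% to 36.8%) and 7.48% for genes called higher. The intervals cover counting error only, and no test was applied to these shares.

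Of the other motifs, the site II element (TGGGCC, frequent before genes of growth and translation) was rarer in genes called lower, at 8.12% (Wilson 95% interval 4.81% to 13.4%), against 15.0% of genes called higher and 16.5% of members. After trend correction its share in genes called lower was 12.5% (6.47% to 22.8%). The W-box (TTGACC or TTGACT, bound by WRKY factors) was in 31.1% of promoters of genes called higher and 31.2% of those called lower, against 28.1% of members. The G-box was in 8.76% and 5.62%, against 7.31%. The GCC-box was in 2.3% and 1.25%, against 1.99%, and the telo-box (AAACCCT) in 5.76% and 5%, against 6.38%. Both strands were searched throughout.

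**Figure D3:**
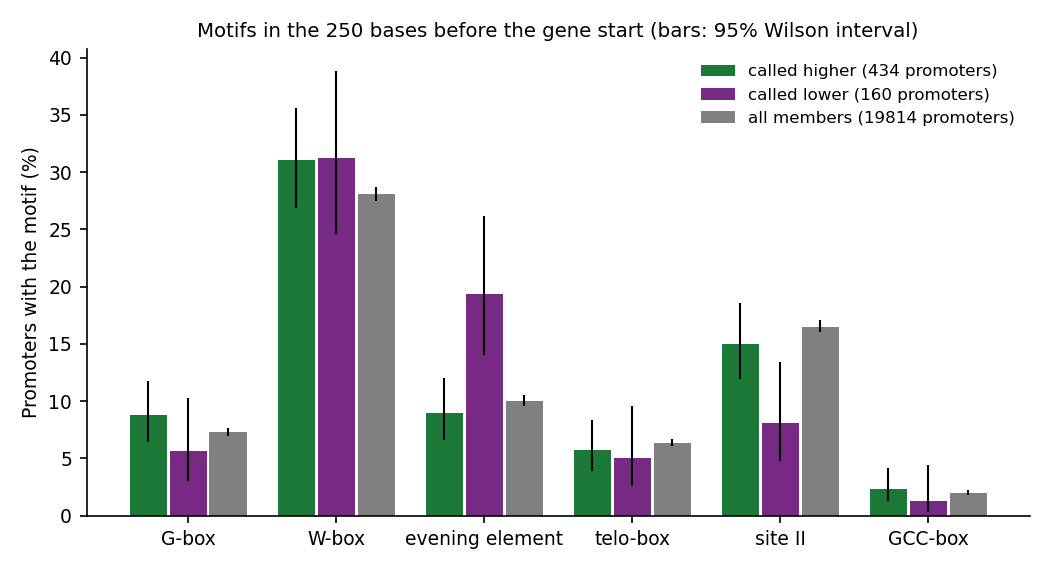
Share of promoters (y axis, %) that hold each of 6 short motifs (x axis) within 250 bases before the gene start, for genes called higher in hda19, genes called lower and all members, with 95% Wilson intervals as error bars. The evening element reaches 19.4% in genes called lower against 10% of members, and the site II element 8.12% against 16.5%.

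Targets of CBF2 and genes of drought and cold varied in sign. Of 21 listed genes 18 were members, 0 were called higher and 1, CBF2, lower, and the median was -0.23, or 0.03 after trend correction. COR15A, a chloroplast cryoprotectant, had 586 and 519 in hda19 and 1002 and 1067 in hdip1/2/3, a difference of -0.91 (standard error 0.23). RD29A, a hydrophilic stress protein, had 494 and 357 against 362 and 152, a difference of 0.84 in the other direction with overlapping libraries. Of the 18 members, 7 were positive and 11 negative, and the largest positive difference was 1.93, without a call. The filter admitted 1 of the 18 through hda19 alone. NCED3, the rate-limiting enzyme of ABA synthesis, had 40.2 and 84.1 against 112 and 95.1, and its difference of -0.81 was -1.05 and called only after trend correction.

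ABA receptors of the PYR/PYL family, which inhibit clade A phosphatases once ABA is bound, were mostly lower in hda19, by less than the fold limit. Of 14 listed receptors 9 were members and none was called. Their median was -0.46, and 6 of the 9 were lower at an unadjusted P value below 0.05, beside 12.1% of all members. PYL4 had 4889 and 5295 in hda19 and 7492 and 7579 in hdip1/2/3 (difference -0.57), and PYL5 had 884 and 938 against 1644 and 1566 (difference -0.82). PYL1 had 1881 and 1601 against 2615 and 2968, a difference of -0.68. For these 3 genes the spread within a mutant was small beside the gap between mutants. PYL6, PYR1 and PYL8 followed at -0.74, -0.46 and -0.38. After trend correction the list median was -0.26. At that P value 4 receptors were then lower and 2, PYL7 and PYL9, higher, beside 10.1% and 8.53% of all members. Wild-type levels were below those of both mutants for PYL4 (2659 and 3450) and PYL5 (228 and 359).

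The phosphatases that these receptors inhibit lay on both sides of 0. Among 13 listed kinases and phosphatases of ABA signalling 11 were members, none was called, and the median was 0.08. HAI1, a clade A phosphatase, had 227 and 229 in hda19 and 145 and 99.8 in hdip1/2/3, a difference of 0.91. AHG3, another of the clade, had 2093 and 1894 against 2567 and 3316, a difference of -0.55.

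Type-A response regulators, which are induced by cytokinin and feed back on its signalling, were also mostly lower in hda19. Of 10 listed genes 8 were members and none was called, with a median of -0.60 and 5 lower at an unadjusted P value below 0.05, beside 12.1% of all members. ARR4 had 8786 and 7368 in hda19 and 11582 and 15854 in hdip1/2/3 (difference -0.75), and ARR6 had 671 and 740 against 990 and 1401 (difference -0.74). ARR5, ARR7 and ARR9 had differences of -0.65, -0.60 and -0.56, whereas ARR8 was at 0.39. The hdip1/2/3 libraries were less alike than the hda19 libraries for ARR4, ARR6 and ARR7, with replicate 2 the higher. After trend correction the median was -0.30, and 4 genes were lower at that P value, beside 10.1% of all members.

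Cell wall loosening proteins formed a further group on this side. EXLB1 (AT4G17030), an expansin-like protein, had 6.21 and 12.6 in hda19 and 46.6 and 37.4 in hdip1/2/3, a difference of -2.11 (standard error 0.36), while the wild type had 909 and 1070. Expansins proper differed less, with EXPA11 at 1203 and 1142 against 1627 and 2402 (difference -0.75), EXPA5 at 3936 and 3298 against 4973 and 6526 (-0.66) and EXPA3, EXPA4 and EXPA10 between -0.59 and -0.39. Of 17 listed expansins and cellulose synthases, all members, 1 was called lower, beside 0.807% of all members, and 7 were lower at an unadjusted P value below 0.05, beside 12.1%. The call, EXLB1, was a member through hdip1/2/3 alone. The 6 cellulose synthases on the list had differences of 0.12 to 0.35 and between -0.44 and -0.16 after trend correction, so their sign depended on it. In the wider family of expansins and xyloglucan endotransglucosylases, 45 of 74 genes were members, with a median of -0.39, or -0.28 after trend correction. Of these, 0 were called higher and 3 lower, beside 2.19% and 0.807% of all members. The calls beside EXLB1 were XTH31 (AT3G44990) and XTH17 (AT1G65310), enzymes that cut and rejoin wall xyloglucan. XTH31 had 3146 and 3291 against 6146 and 8889, a difference of -1.2 that was -0.93 without hdip1/2/3 replicate 2, and XTH17 had 31.9 and 33.8 against 69.8 and 117, a difference of -1.43.

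**Figure D4:**
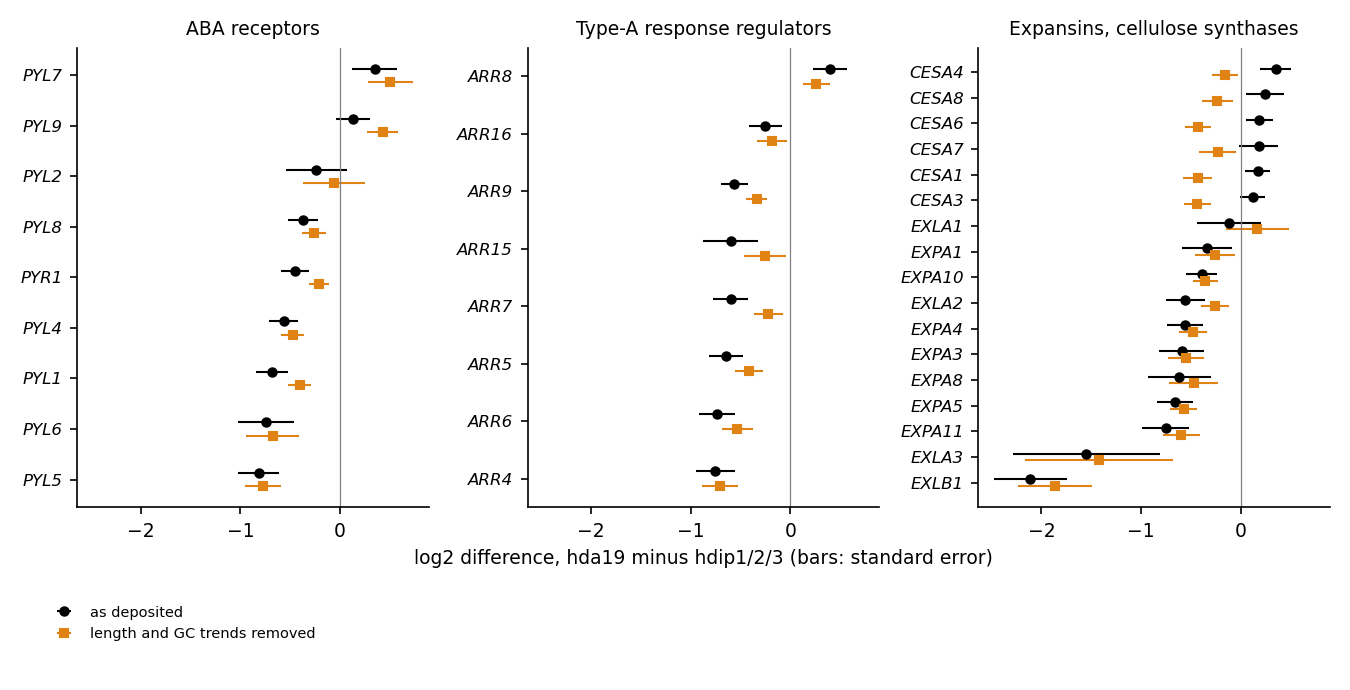
Log2 difference between hda19 and hdip1/2/3 (x axis) of each measured ABA receptor, type-A response regulator and expansin or cellulose synthase (y axis), as deposited (circles) and with length and GC trends removed (squares), with standard errors as bars. Most receptors, regulators and expansins lie below 0 either way, whereas the 6 cellulose synthases move from above to below 0.

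Growth-related genes with short transcripts were lower in hda19 mainly before trend correction. All 16 members of the small auxin up RNA (SAUR) family defined by symbol had negative differences, beside 9716 of all 19815 members. Of the 16, 1 was called lower, beside 0.807% of all members, and 1 was a member through hdip1/2/3 alone. The family median was -0.73, which became -0.20 with none called after trend correction. Early auxin-response genes had a median of -0.36 over 15 members, or -0.10 after trend correction, and no call. IAA5, an auxin-induced repressor, had a difference of -0.89 and GH3.5, an auxin-conjugating enzyme, one of 0.69. For 21 of 22 listed genes of light harvesting and Rubisco the median was -0.46, or -0.26 after trend correction. Although 20 of these 21 were negative, only 2 had an unadjusted P value below 0.05, and hdip1/2/3 replicate 2 was above replicate 1 for all 21. RBCS1B, a small subunit of Rubisco, had 45190 and 34105 in hda19 and 55959 and 63437 in hdip1/2/3, and LHCB6, an antenna protein, had a difference of -0.57. Ribosomal proteins without an organelle term in the product name, taken as cytosolic, had 295 members, no call and a median of -0.31, which became -0.02. Organelle proteins named without such a term would be counted among them.

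The opposite held for families with long transcripts. Genes with kinesin or myosin in the product name, among them motor proteins of microtubules and actin, had the most calls in 1 direction of the protein families examined. Of 89 members 15 were called higher, beside 2.19% of all members, and 0 lower, with a median of 0.67. The called AT1G63300, AT4G40020, AT5G41140 and AT5G52280 are named only as myosin heavy chain-related, so not every gene counted need be a motor protein. POK1 and POK2, kinesins that guide the new wall at division, had 186 and 351 against 122 and 86.2, and 355 and 620 against 203 and 109. Without hda19 replicate 2 both calls were lost (0.85 and 1.25 for POK1 and POK2). After trend correction 2 of the 89 were called, beside 1.28% of all members. These were AT3G54060 and AT4G40020, both members through hda19 alone and placed here by a product name that mentions myosin, and the median was 0.31. At an unadjusted limma P value below 0.05 alone, 23 of the 89 were then higher and 1 lower, beside 8.53% and 10.1% of all members. AT3G54060 (1.46) was lost without hda19 replicate 1 (1.43) or hdip1/2/3 replicate 2 (1.35). For POK2, a transcript of 8663 nt, the difference went from 1.65 to 0.54. NLR immune receptors, which sense pathogen effectors, had 104 of 108 members positive, beside 10099 of all 19815 members. Their median was 0.61, with 4 called higher, beside 2.19% of all members. After trend correction the median was 0.05, with 2 called higher and 1 lower, beside 1.28% and 0.323% of all members. ABC transporters went from 0.44 to -0.03 and pentatricopeptide repeat proteins from 0.26 to 0.08.

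Of the 6 listed markers of cell division, 3 were higher in hda19 at an unadjusted P value below 0.05 and 0 lower, beside 14.1% and 12.1% of all members, and the median was 0.35, or 0.45 with all 6 positive after trend correction. CYCB1;1, the cyclin of G2 and mitosis, had 186 and 184 in hda19 and 104 and 83.8 in hdip1/2/3, a difference of 0.98, or 1.01 and called after trend correction, and the cytokinesis syntaxin KN had one of 0.52. CYCB1;2, a related cyclin, had 382 and 451 against 330 and 226, a difference of 0.60, or 0.57 after trend correction. PCNA1 and the kinases CDKB2;1 and CDKB2;2 lay between -0.06 and 0.19. All 6 were members, and none was called before trend correction.

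**Figure D5:**
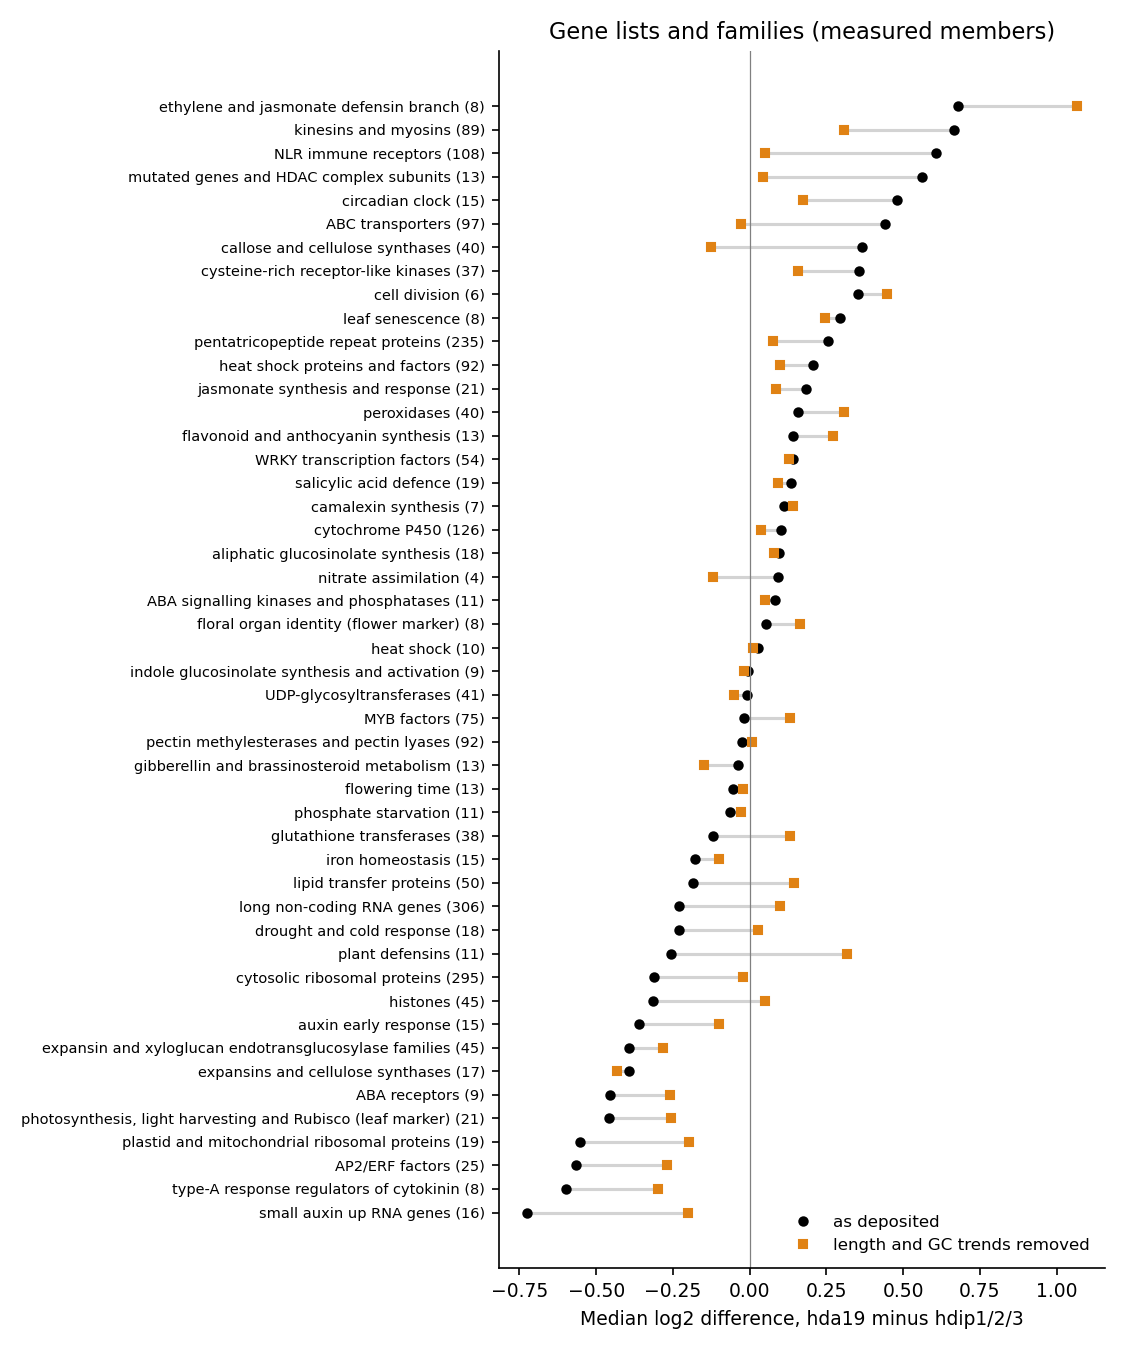
Median log2 difference between hda19 and hdip1/2/3 (x axis) of each gene list or family with at least 4 members (y axis, number of members in brackets), as deposited (circles) and with length and GC trends removed (squares). The NLR receptors move from 0.61 to 0.05 and the ribosomal proteins from -0.31 to -0.02, whereas the defensin branch moves from 0.68 to 1.07. The list of expansins and cellulose synthases stays near -0.4, although its cellulose synthases change sign. The wider expansin and xyloglucan endotransglucosylase family moves from -0.39 to -0.28.

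Most transcripts of the complex itself were higher in hda19 before trend correction. All 13 genes listed were members. SNL4 (1671 and 2238 against 1121 and 629) and SNL1 (1409 and 1943 against 1067 and 572) were called higher at 1.2 and 1.08, and SNL6, SNL3, SNL2 and SNL5 lay at 0.98, 0.92, 0.70 and 0.50. These transcripts are between 4126 and 5037 nt long. After trend correction none of the 13 was called, SNL4 was at 0.51, SNL6 at 0.35, SNL1 at 0.32 and SNL3 at 0.23, SNL2 and SNL5 were at -0.02 and -0.16, and the median of the list went from 0.56 to 0.04. SNL4 and SNL6 remained higher, and HDA19 lower, at an unadjusted P value below 0.05. SNL1 and SNL4 were also lost without hda19 replicate 2 (0.85 and 0.99) or hdip1/2/3 replicate 2 (0.63 and 0.79). HDC1 had a difference of 0.46, MSI1 one of -0.07 and HDA6, the related deacetylase, one of 0.00.

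The mutated genes were transcribed in both mutants. HDA19 (AT4G38130) had 2832 and 4561 in hda19 and 4893 and 5206 in hdip1/2/3, against 4298 and 4416 in the wild type, a difference of -0.49 (standard error 0.20) that trend correction left at -0.49. HDIP1, HDIP2 and HDIP3 had 583 and 479, 400 and 380, and 744 and 591 in hdip1/2/3, against 714 and 813, 610 and 561, and 876 and 1094 in hda19. Their differences were 0.53, 0.59 and 0.56, and 0.04, 0.12 and 0.02 after trend correction. Counts over a whole gene do not show a small edit or the place of an insertion, and they checked neither genotype label.

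Flowering and clock genes differed in a few members. MAF5 (AT5G65080), a floral repressor related to FLC, had 20.5 and 8.66 in hda19 and 98.5 and 54.7 in hdip1/2/3, against 10.1 and 6.08 in the wild type, a difference of -2.37 (standard error 0.59) that remained called without any single library. Its relative MAF4 had 44.2 and 34.5 against 63.1 and 78.9 (-0.84). The flowering activators FT, SOC1 and CO had differences of -0.01, -0.16 and 0.24, and of 13 members among 16 flowering-time genes MAF5 was the only call. Of 17 clock genes 15 were members, with 1 called higher, 0 lower and a median of 0.48, or 0.17 after trend correction. PRR3, the call, had few reads (21.6 and 15.9 against 8.52 and 0.12), and it was lost without hda19 replicate 1 (2.37), hda19 replicate 2 (2.79) or hdip1/2/3 replicate 2 (1.04). PRR3 was a member through hda19 alone, so a higher value in hda19 was favoured by the filter. LUX, a component of the evening complex, had 361 and 329 against 521 and 540, a difference of -0.62 that was -1.08 and called after trend correction, and PRR7, a daytime repressor, had one of 0.78.

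Nutrient and pigment genes gave few calls, and senescence genes gave none. PAP2, a MYB activator of anthocyanin synthesis, had 88.4 and 71.9 in hda19 and 36.7 and 20.6 in hdip1/2/3, a difference of 1.5 that held without any single library, although 0 of the other 12 members of the flavonoid list were called. PHT1;1, a phosphate transporter (8.30 and 21.6 against 2.18 and 2.27), and PS2, a pyrophosphatase induced by phosphate shortage (45.2 and 31.8 against 26.7 and 2.69), were called higher at 2.17 and 1.95. Each was lost without 3 of the 4 mutant libraries. PHT1;1 was at 1.53 without hda19 replicate 2 and at 2.15 and 2.19 without hdip1/2/3 replicates 1 and 2, and PS2 was at 1.70 and 2.19 without hda19 replicates 1 and 2 and at 0.49 without hdip1/2/3 replicate 2. PHT1;1 was a member through hda19 alone, so a higher value in hda19 was favoured by the filter. The other 9 of the 11 phosphate members, SPX1 among them at -0.10, were not called. BHLH38, an iron-deficiency regulator, had 19.8 and 135 against 194 and 220, a difference of -1.97 that was -0.62 without hda19 replicate 1, -1.88 with a P value above the limit without hdip1/2/3 replicate 2, and -1.62 without a call after trend correction. SAG29, a sugar transporter of senescing leaves, had 594 and 534 against 892 and 1355 (-0.96), and NIA1, a nitrate reductase, had 7306 and 7682 against 4914 and 5011 (0.59). No gene of the senescence, nitrate, heat shock or gibberellin and brassinosteroid lists was called.

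The largest differences of all came from genes with few reads. By the rule that took the 10 largest called differences in each direction without overlap, the highest were HIPP22 (a heavy-metal-binding protein, 37.9 and 6.63 in hda19), the LEA protein gene AT3G17520, the polygalacturonases ADPG1 and PGAZAT that loosen pectin at abscission, AT1G52430, TSPO, AT3G48450, AT3G57210, THI2.1 and LEA7. All 10 were members through hda19 alone, so the filter favoured this direction. No read was found in either hdip1/2/3 library for HIPP22, ADPG1, PGAZAT, AT1G52430, AT3G48450 and AT3G57210. Set against a floor of 3 reads per library, HIPP22 was at least 7.5-fold higher, ADPG1 5.33-fold, PGAZAT 4.67-fold, AT3G48450 4.33-fold, AT1G52430 4.17-fold and AT3G57210 3.67-fold. AT3G17520 had 39.2 and 66.2 against 10.7 and 0.15, LEA7 had 20.8 and 120 against 19.2 and 0.25, and TSPO, a stress-induced membrane protein, had 30.8 and 28.4 against 5.33 and 0.08. THI2.1, a thionin that jasmonate induces, had 50.2 and 6.52 against 0.02 and 2.2, a read ratio of 27.7 with an exact counting interval of 7.33 to 234. Of these 10, AT1G52430, TSPO and AT3G57210 were called without any single mutant library, although TSPO went from 3.55 to 2.27 without hdip1/2/3 replicate 2. HIPP22 (2.93), PGAZAT (3.13) and THI2.1 (2.06) were lost without hda19 replicate 1, and AT3G17520 (3.46), ADPG1 (3.05), AT3G48450 (2.64) and LEA7 (2.12) without hda19 replicate 2. AT3G17520 (2.16) and LEA7 (1.35) were also lost without hdip1/2/3 replicate 2, and THI2.1 (2.62) without hdip1/2/3 replicate 1.

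On the lower side the same rule gave AT5G25550, AT2G44578, CBF2, AT3G51325, AT5G08391, AT3G29690, DMP7, UPS4, AT3G53250 and MLP168. All 10 were members through hdip1/2/3 alone. AT2G44578, a RING-type protein gene, had 4.1 and 1.71 in hda19 and 35.9 and 39.5 in hdip1/2/3, and AT5G08391, a gene for a putative transmembrane protein, had 4.11 and 2.62 against 32.5 and 28.3. These 2 and CBF2 were called without any single mutant library. AT5G25550, a leucine-rich repeat protein gene, had no read in hda19 and was at least 3.00-fold lower against the floor. Few reads were also found in hda19 for AT3G29690, DMP7 and AT3G53250, which were 7.89-fold (2.38 to 41.0), 9.26-fold (2.85 to 47.7) and 9.26-fold (2.22 to 82.3) lower by reads with exact counting intervals. AT3G29690, DMP7 and AT3G53250 were not called after trend correction. Without hda19 replicate 1, AT3G29690 (-1.85), UPS4 (-1.48), AT3G53250 (-1.89) and MLP168 (-1.08) were lost, and without hda19 replicate 2, AT3G51325 (-1.58) and DMP7 (-1.77). AT5G25550 (-3.85), AT3G29690 (-3.10), DMP7 (-2.01) and AT3G53250 (-3.09) were lost without hdip1/2/3 replicate 1, and AT5G25550 (-2.93), AT3G51325 (-2.31), AT3G29690 (-2.49), UPS4 (-1.72), AT3G53250 (-2.18) and MLP168 (-2.05) without hdip1/2/3 replicate 2.

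Markers of tissues were examined because whole seedlings were sampled. Of 9 root markers only PYK10, a root beta-glucosidase, reached the member level, at 6828 and 8835 in hda19 and 6636 and 5813 in hdip1/2/3, and the remaining 8 were below a mean of 10 in both mutants. Of 16 seed maturation genes only FUS3 was a member (13.4 and 9.70 against 6.49 and 4.58). Among 10 floral identity genes 8 were members at low levels and none was called. Differences were positive for 5 of the 8 and negative for 3, down to -1.50, with a median of 0.05. The filter admitted 1 of the 8 through hdip1/2/3 alone. The highest differences were those of AP3, at 16.4 and 8.73 against 8.52 and 0.12, and LFY, at 21.6 and 15.9 against 6.49 and 4.58. AP3 and LFY were called higher after trend correction, at 2.26 and 1.76. FUS3, AP3 and LFY were members through hda19 alone, so higher values in hda19 were favoured by the filter. The part of tissue composition in the differences described above was not tested.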

How the data were processed

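The members and gene lists were chosen with earlier results of these data known, so no list is independent evidence of its direction. The authors mapped reads to TAIR10 with HISAT2, counted those with a unique position per gene and adjusted the counts with edgeR. The deposited values are adjusted counts per gene on a common library size (signal values, not raw counts). The study's methods describe paired reads and the labels single-end reads. When the adjustment was undone, 195288 of 195288 values (100%) came out whole, with a tolerance of 0.01. Genes with 2 reads (650 to 762 per library) outnumbered those with 1 (358 to 416), so reads may not be independent fragments, and intervals cover counting error only. Whether counting used strand is not given in the sources used here. Among called genes named here, SNL1, AT1G52430, THI2.1, LEA7, BHLH38, DMP7 and AT3G54060 overlap a gene on the other strand, and NET4B and POK2 a gene on the same strand, so their values are uncertain.

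The log2(value + 1) was fitted by limma-trend (limma 3.58.1, R 4.3.3) with genotype as the only term, with Benjamini-Hochberg correction across the 19815 members. With 2 libraries against 2, the smallest P value of an exact permutation test is 0.333, and the limma P values draw on a spread shared between genes. Lowess trends (span 0.3) on transcript length and GC content were removed from each library in an alternative fit. Other alternatives were other filters, pseudocounts of 0.1 and 10, the mutant libraries alone, a replicate block, a median-ratio scaling, limma-voom, a robust prior and the omission of each library. The fit and the recovery were tested on simulated data. Named genes were the mutated genes and complex subunits, the 10 largest called differences in each direction without overlap, and up to 4 called members of a list (2 values where none was called). Other list members, the called genes of 3 families and the genes of the rule at a mean of 300 were added after the values had been seen. Gene models, names and promoter sequences came from the RefSeq annotation of TAIR10.1, to which all 32548 identifiers matched. For 1 member no full promoter window of 250 bases was read. Plots used matplotlib 3.10.9.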

Additional observations from a re-analysis of the deposited data

How the results depend on the processing

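No gene passed an adjusted P value of 0.05 in limma under the filters, pseudocounts, scaling, robust prior, limma-voom fits, replicate block and the omission of any library but hdip1/2/3 replicate 1, with smallest adjusted P values of 0.0588 to 0.596. Genes called lower numbered 247 with a mean of at least 1, 276 with no filter, 90 with a mean of at least 50 and 87 with a pseudocount of 10. After removal of length and GC trends there were 254 higher and 64 lower. SNL2 (-0.0222), SNL5 (-0.16) and PEN3 (-0.10) then changed sign. Without each library in turn, genes called higher ranged from 152 to 1220, genes called lower from 120 to 275, and genes past the adjusted threshold from 0 to 992. With trends removed as well, chosen after seeing the data, genes called higher were 272 and 188 without hda19 replicates 1 and 2 and 588 and 154 without hdip1/2/3 replicates 1 and 2, genes called lower were 90, 116, 87 and 74 in that order, and 0, 1, 493 and 2 genes passed the adjusted threshold. In the deposited values the median of the shortest tercile ranged from -0.37 to -0.22, of the middle tercile from -0.0244 to -0.00965 and of the longest tercile from 0.21 to 0.43. Of 67 named and called genes, 20 were called without any single mutant library, and none of the 67 changed sign.

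Replicate numbers were not taken to pair the samples, since deviations of same-numbered libraries correlated at -0.19 for hda19 and hdip1/2/3, at -0.17 for hda19 and wild type and at 0.32 for hdip1/2/3 and wild type. A replicate block gave 445 genes higher, 159 lower and 0 past the adjusted threshold. A block with crossed hda19 numbers, added after seeing the data, gave 494 higher, 182 lower and 6364 past the adjusted threshold. With 2 libraries a genotype, the number of libraries limits the precision more than depth does.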
